A study of Mus musculus with 9 samples.

Results

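Beta-enriched islet cells were compared with alpha-enriched islet cells of the mouse, 3 libraries a side, as 6 of the 9 libraries of the series. The members were taken by their labels, and none was chosen by a measured value. All islets came from C57B/L6 mice aged 12 weeks, were kept in culture overnight, were dispersed to single cells and were sorted by FACS on CD24 and CD71. Both subsets are CD24 low. Cells without CD71, the transferrin receptor, make up the alpha-enriched libraries, and cells with it the beta-enriched libraries. The 3 delta-enriched libraries, CD24 high, entered the filter on low counts, the scaling of the libraries and the fit for the spread between libraries. Their levels are not compared here. The labels do not say whether the 3 libraries of a subset came from separate mice, so p-values measure the spread between these libraries, which may be technical. Total RNA was primed with random primers, so the libraries can hold long non-coding and unspliced RNA. How far unspliced RNA entered the counts per gene was not tested. In bulk samples such as these, fewer cells of a type and less RNA per cell cannot be told apart.

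Alpha and beta cells are neighbouring endocrine cells that arise from a common progenitor and share most of their secretory machinery. Beta cells couple the breakdown of glucose to membrane depolarisation, calcium entry and insulin release, and carry a heavy load of proinsulin folding in the endoplasmic reticulum. Alpha cells release glucagon when glucose is low and in response to amino acids and adrenergic signals, and glucagon in turn drives amino acid breakdown in the liver.

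Library totals ran from 6684595 to 8945105 expected counts in alpha and from 5956758 to 9529920 in beta. Beta replicate 2 stood apart: 34.4% of its counts fell on CT010467.1, a ribosomal RNA locus, against 3.15% to 5.37% in the other alpha and beta libraries, Lars2, a gene whose annotated transcript holds sequence close to ribosomal RNA, took 2.28% against at most 0.0926%, and protein-coding genes took 52.9% against 81.1% or more. Its TMM factor, the scaling factor that sets libraries to a common level, was 0.613 against 0.984 to 1.06 in the others. The labels held against their markers. Irx2, an alpha cell homeobox factor, was at 115.4 to 129.8 CPM (counts scaled to library size with TMM factors) in alpha and 0.990 to 1.03 in beta, and Mafa, a beta cell factor, was at 8.94 to 24.6 CPM in alpha and 266 to 360 in beta. The levels of marker genes left in the other subset were not symmetric, and the part of gate purity in this was not tested. The mean level of Ins2 in alpha was 8.96% of its level in beta and that of Iapp 10.5%, whereas Gcg in beta was 0.440% of its level in alpha and Ttr 2.70%. Summed markers of several other cell types were also higher in alpha, while those of acinar cells overlapped. Those of PP cells were at 2961 to 4013 CPM in alpha and 211 to 241 in beta, those of delta cells at 121 to 170 and 6.60 to 8.99, those of duct cells at 627 to 824 and 355 to 400, those of mesenchymal cells at 10.6 to 47.3 and 0.128 to 0.857, and those of acinar cells at 351, 61.5 and 76.9 in alpha and 19.6, 66.0 and 28.2 in beta. Markers of endothelial, immune and Schwann cells summed to 16.4 CPM or less per type in every library, and Plvap, Ptprc, Lyz2 and Foxd3 had 0 counts in all 6. A sum can rest on few members, so a higher sum need not mean more cells of that type. Ppy was at 1656 to 2409 CPM in alpha and 30.7 to 60.5 in beta, and Sst at 18.9 to 73.4 and 1.03 to 2.31. The sums were not compared member by member. The part of the other cell types in the differences below was not tested.

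Of 15896 genes tested, 2345 (14.8%) were higher and 1886 (11.9%) were lower in beta at a Benjamini-Hochberg adjusted p of 0.05 in edgeR's quasi-likelihood test, together 26.6%. At least 2-fold apart were 1070 higher (6.73%) and 1075 lower genes (6.76%), 7239 genes (45.5%) had no overlap between the subsets, and the median log2 fold change of all tested genes, beta minus alpha, was -0.02. Leaving out beta replicate 2, 1754 genes (10.5%) were higher and 1456 (8.71%) were lower of 16724 tested. Of the 4231 genes called with it, 3142 (74.3%) were called in the same direction without it and 0 in the opposite one. The 1089 that lost the call had a median absolute log2 fold change of 0.60, and 33 genes gained one. Leaving out any other alpha or beta library also cost calls, and kept 77.0% to 79.7% of the 4231. The plot of fold changes with and without that library shows the lost calls along the diagonal and Lars2 far off it.

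**Figure D1:**
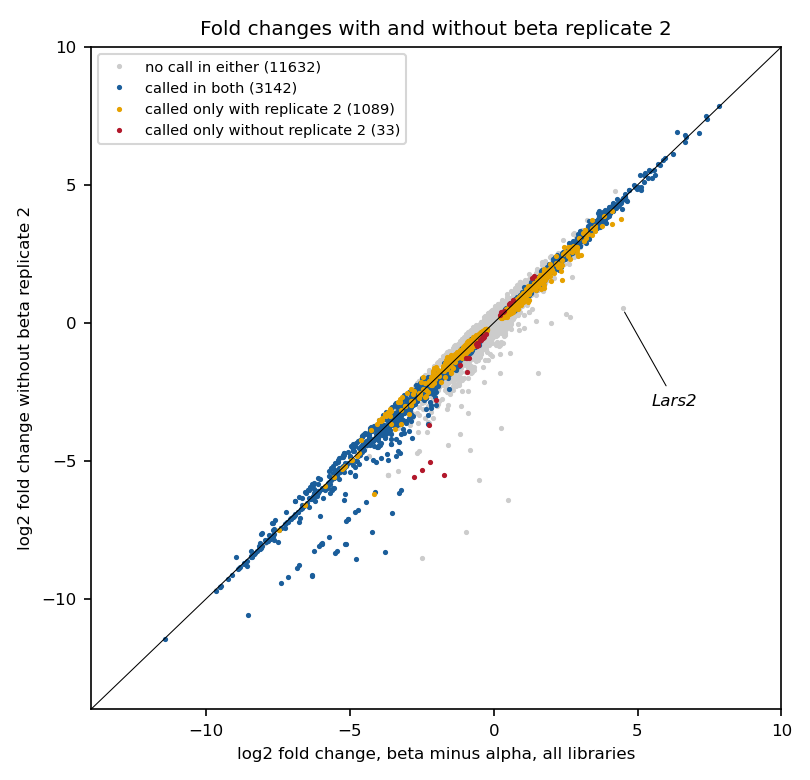
Each point is a gene tested in both fits, with its log2 fold change (beta minus alpha) from all libraries on the x axis and that without beta replicate 2 on the y axis; colours give the call at an adjusted p of 0.05 and the line marks equal values. The 3142 genes called in both and the 1089 called only with the library lie near the line, and Lars2 falls from 4.48 to 0.52.

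Outside the textbook markers, the genes that rose most in beta had no single role, and included the receptors Cnr1 and P2ry6, the GABA enzyme Gad1 and the sialyltransferase St8sia1. The 14 largest rises at 30 CPM or more, in genes called with and without beta replicate 2, ran from 14.7-fold to 29.5-fold. Cnr1 (chr4:33924593-33948831, GRCm38, gene bounds in GENCODE M21, as for all gene positions here), the cannabinoid receptor CB1, was at 1.14, 0.504 and 1.55 CPM in alpha replicates 1, 2 and 3 and at 36.0, 26.6 and 32.0 CPM in beta replicates 1, 2 and 3, a 29.5-fold rise (log2 fold change 4.88 ± 0.29 SE, adjusted p = 9.89e-10, edgeR). The lowest beta library was far above the highest alpha library. Gad1 (chr2:70553072-70602014), which makes GABA from glutamate, was at 8.89, 2.77 and 7.62 CPM in alpha and 136, 125 and 113 in beta, 19.3-fold higher (4.27 ± 0.51, adjusted p = 5.86e-04, edgeR). P2ry6, the receptor for UDP, was at 2.51, 1.51 and 1.98 CPM in alpha and 31.1, 32.2 and 34.2 in beta, 16.0-fold higher. St8sia1, the sialyltransferase that makes ganglioside GD3, was at 5.35, 3.78 and 5.78 CPM in alpha and 84.9, 85.5 and 89.9 in beta, 17.4-fold higher. In these genes the beta libraries lay closer together, on the log scale, than the alpha libraries did. Itpkb (chr1:180330485-180424802), a kinase that phosphorylates the calcium messenger inositol trisphosphate, was at 11.4, 7.93 and 9.88 CPM in alpha and 151, 150 and 141 in beta (log2 fold change 3.92 ± 0.15, adjusted p = 3.49e-12, edgeR). Fkbp1b, a binding partner of ryanodine receptor calcium channels, rose 20.6-fold, with a log2 fold change of 4.36 that became 5.03 without alpha replicate 3. Dlgap1, a postsynaptic scaffold protein, rose 21.5-fold, and Rims3, of the family that organises vesicle release sites, rose 15.0-fold. Genes of secreted and matrix proteins also rose: Olfm4, a secreted olfactomedin glycoprotein (18.5-fold), Fras1, a basement membrane protein (16.4-fold), and Emilin1, a glycoprotein of elastic fibres (15.0-fold). Tmem215 (15.3-fold), Hspa12a, a distant member of the Hsp70 chaperone family (15.1-fold), and Car10, a carbonic anhydrase relative without the enzyme activity (14.7-fold), completed the 14.

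The genes that fell most in beta were further apart than those that rose, with log2 fold changes of -6.75 or below. Ugt8a (chr3:125865271-125938619), which makes galactosylceramide, the precursor of sulfatide, was at 58.4, 39.8 and 45.3 CPM in alpha and had 0 counts in all 3 beta libraries, so that it was at least 317-fold lower against a floor of 3 counts over the beta subset. No other gene at 20 CPM or more in one subset had 0 counts in the other. Peg10 (chr6:4747306-4760517), an imprinted gene derived from a retrotransposon, was at 260, 285 and 327 CPM in alpha and 0.257, 0 and 1.49 in beta (log2 fold change -8.97, and -10.79 without beta replicate 3). Pdk4 (chr6:5483351-5496309), the kinase that shuts off pyruvate dehydrogenase, was at 272, 197 and 243 CPM in alpha and 1.03, 0.685 and 0.660 in beta, 287-fold lower (-8.16 ± 0.31, adjusted p = 8.95e-11, edgeR). All 3 genes were at 1.49 CPM or less in every beta library. Sytl2, which docks granules through Rab27, was at 79.3, 119 and 115 CPM in alpha and 0.128, 0.343 and 0.330 in beta, 384-fold lower. Eef1a2, the elongation factor isoform of muscle and neurons, was at 114, 112 and 90.6 CPM in alpha and 0.385, 0.343 and 0.495 in beta, 249-fold lower. Avpr1b, the vasopressin receptor of the pituitary, had a log2 fold change of -8.44, which became -9.85 without beta replicate 1. Gfra1, the co-receptor for GDNF, had 3 beta counts in all, and its level was 234 times higher in alpha (95% counting interval 79.9 to 1138), with a fitted log2 fold change of -7.71 that became -8.45 without beta replicate 1. Klhl13, a substrate adaptor of the CUL3 ubiquitin ligase (207-fold), Galnt13, which starts mucin-type O-glycans (206-fold), Gm609 (201-fold), Samd5 (155-fold) and Edn3, which encodes endothelin 3 (107-fold), were also lower. Sgce, which encodes epsilon-sarcoglycan, and Kcnj3, a subunit of G protein-gated potassium channels, had log2 fold changes of -7.64 and -7.62, which became -9.06 and -11.82 without beta replicate 1, the library that held most of their few beta reads.

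**Figure D2:**
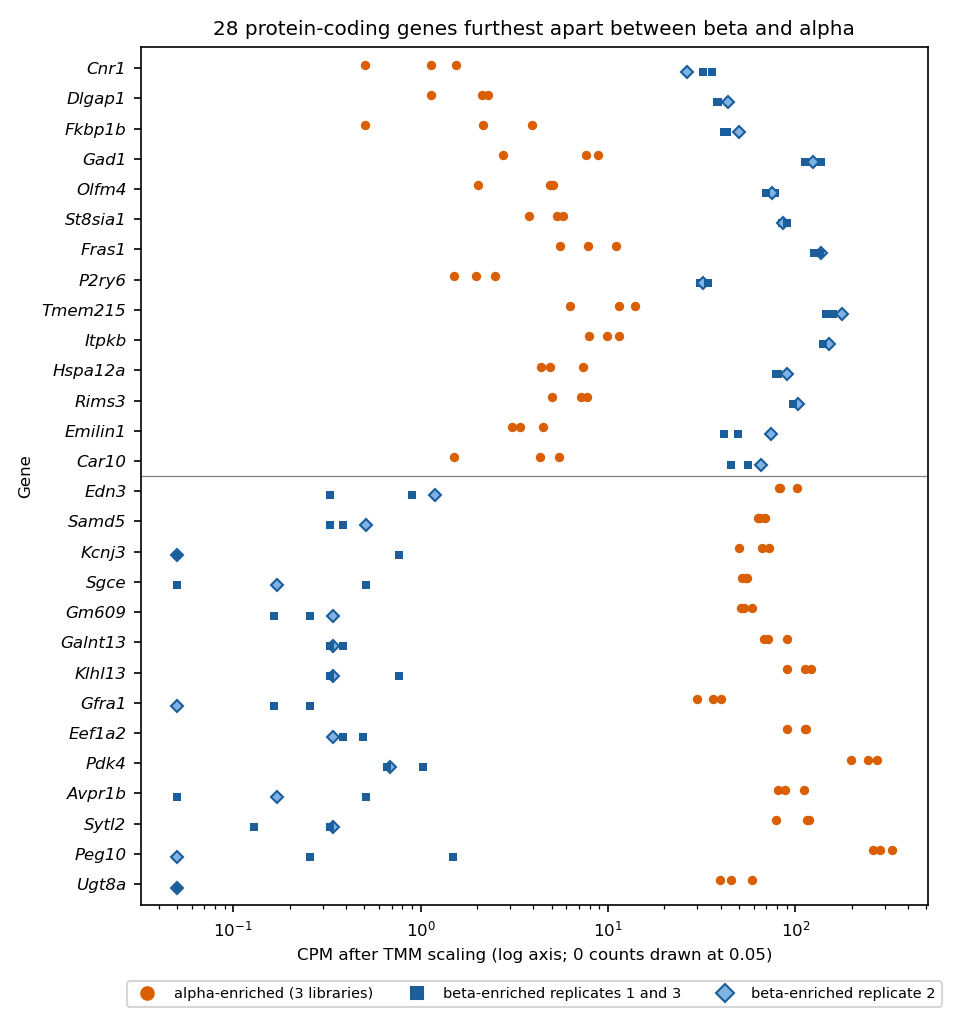
Each row is a gene and each point a library, with CPM after TMM scaling on a log axis; circles are the alpha-enriched libraries, squares beta-enriched replicates 1 and 3, diamonds beta-enriched replicate 2, and 0 counts are drawn at 0.05. The 14 genes above the line were higher in beta and keep a visible level in alpha, while the 14 below were lower in beta, where all are at 1.49 CPM or less.

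The level left in the lower subset restates the fold change, for genes taken because their changes were the largest. Over the 14 genes that rose, the mean alpha level was 3.38% to 6.79% of the beta level (median 6.14%). The smallest log2 fold change among them, 3.88, is above the 3.48 of Ins2. The choice of genes thus set this range below the 8.96% of Ins2. Alpha replicate 2 was the lowest alpha library for 13 of these 14, and it also had the lowest sum of beta markers, 4292 CPM against 6252 and 4912 in alpha replicates 1 and 3. Over the 14 genes that fell, the mean beta level was 0% to 0.909% of the alpha level (median 0.403%). Among all genes called, 151 rose by more than Ins2 and 40 fell by more than Gcg. How much of the alpha level of a gene that rose came from beta cells in the alpha gate was not tested.

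Across 34 lists of genes by function, the share of members past the test ranged from 7.89% for nuclear genes of the respiratory chain, below the 26.6% of all tested genes, to 81.8% for cAMP and G protein signalling. Split by direction, as the bars by list show, the highest shares above were those of protein folding and of monoamine and GABA handling, and the highest below those of axon guidance and ribosomal proteins. Most signalling lists held members of both directions. All 34 were fixed with earlier results of these data known, and some genes stand in several lists. The members named for a list were those with the smallest p and those in the rarer direction, and the further members were chosen after their values were seen.

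**Figure D3:**
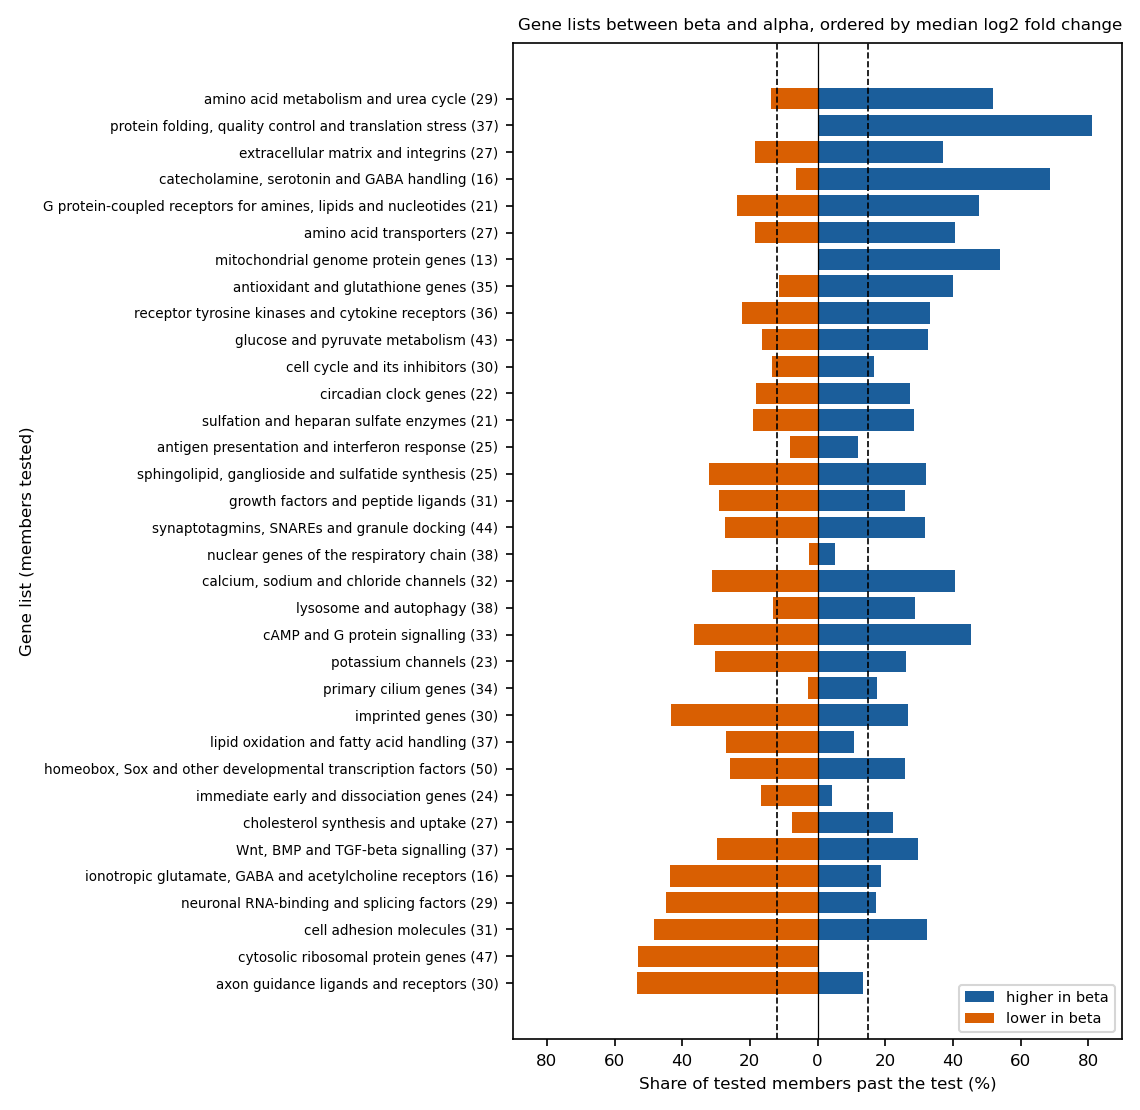
Bars give the share of tested members of each list past the test, higher in beta to the right and lower to the left, with the number tested in parentheses and lists ordered by their median log2 fold change; dashed lines mark the shares over all tested genes, 14.8% and 11.9%. The folding list reaches furthest to the right with 30 of 37 members, and axon guidance and ribosomal proteins furthest to the left with 16 of 30 and 25 of 47.

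Among enzymes of amino acid metabolism, Phgdh, Psph, Mthfd2, Asns and Glul were higher in beta, and Glud1, Oat and Arg1 were lower. Of 29 tested genes of amino acid metabolism, 15 were higher and 4 lower (13 and 4 without beta replicate 2), with a median log2 fold change of 0.72. Phgdh (chr3:98313170-98339990), the first enzyme of serine synthesis, was at 6.15, 4.53 and 3.67 CPM in alpha and 27.7, 24.0 and 15.3 in beta, 4.64-fold higher (2.21 ± 0.30, adjusted p = 1.86e-05, edgeR). Psph, the last enzyme of that pathway, was at 7.06, 8.06 and 5.78 CPM in alpha and 23.9, 18.5 and 20.1 in beta, 2.99-fold higher. The alpha and beta libraries of both genes did not overlap, nor did those of 45.5% of all tested genes. Psat1, which acts between them, was at 30.6, 19.3 and 14.7 CPM in alpha and 54.4, 48.3 and 30.2 in beta, so that the lowest beta library lay just under the highest alpha library. Its adjusted p of 0.0387 became 0.136, 0.0948, 0.122 and 0.122 without alpha replicate 2, alpha replicate 3, beta replicate 1 and beta replicate 2. Downstream of serine, Mthfd2, the mitochondrial folate enzyme, was 3.74-fold higher (37.4, 24.7 and 21.0 CPM in alpha, 129, 92.9 and 89.9 in beta), Shmt2, which splits serine in mitochondria, was 2.11-fold higher, and Cbs, which joins serine to homocysteine, was 2.22-fold higher. Asns, asparagine synthetase, was at 78.3, 65.7 and 47.0 CPM in alpha and 203, 189 and 141 in beta, 2.79-fold higher. For Phgdh, Psat1, Mthfd2 and Asns replicate 3 was the lowest library of each subset. Glul, glutamine synthetase, was at 158, 165 and 177 CPM in alpha and 326, 363 and 355 in beta, 2.09-fold higher (1.06 ± 0.11, adjusted p = 1.34e-06, edgeR).

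In the opposite direction, Glud1, glutamate dehydrogenase, was at 280, 272 and 270 CPM in alpha and 126, 129 and 127 in beta, 2.15-fold lower. Its 3 libraries of each subset lay close together and far from those of the other. Oat, which makes ornithine into a proline precursor, was at 31.7, 34.5 and 30.6 CPM in alpha and 1.28, 0.514 and 1.32 in beta, 30-fold lower. Arg1, arginase, was at 17.0, 18.5 and 9.74 CPM in alpha and 1.03, 2.06 and 2.31 in beta, 8.64-fold lower. Got1 and Got2, the aspartate transaminases, did not pass the test, with log2 fold changes of -0.01 and 0.07.

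Amino acid transporters divided by member. Of 27 tested, 11 were higher and 5 lower, the same counts as without beta replicate 2. Slc6a19, the carrier of neutral amino acids known from gut and kidney, was at 0.570, 1.01 and 1.13 CPM in alpha and 19, 19.9 and 21.5 in beta, 22.2-fold higher. Slc7a5, the light chain of the LAT1 carrier of large neutral amino acids, was at 67.7, 52.9 and 53.8 CPM in alpha and 180, 160 and 161 in beta, 2.87-fold higher. Slc7a8, the LAT2 light chain, went the other way, at 419, 442 and 403 CPM in alpha and 144, 166 and 158 in beta, 2.70-fold lower. Both carriers use the heavy chain Slc3a2, which did not pass the test. Slc7a11, the cystine carrier, rose 5.01-fold, from 6.15, 5.67 and 2.68 CPM in alpha to 33.8, 24.5 and 15.0 in beta. Slc36a1, a lysosomal proton-coupled carrier, was 2.12-fold higher and Slc7a14, of the cationic amino acid carrier family, 1.77-fold higher. Slc38a4, a sodium-coupled neutral amino acid carrier, was at 556, 470 and 443 CPM in alpha and 298, 286 and 265 in beta, 1.73-fold lower (-0.79 ± 0.16, adjusted p = 1.96e-03, edgeR). Slc1a5, the ASCT2 glutamine carrier, was 5.58-fold lower. Slc7a6, of the carrier y+LAT2, was 1.55-fold lower, and its adjusted p of 0.0226 became 0.0928, 0.0825 and 0.0856 without alpha replicate 1, beta replicate 1 and beta replicate 3.

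Protein folding in the endoplasmic reticulum was the most one-sided of the lists: 30 of 37 tested members were higher in beta, 0 were lower and the median log2 fold change was 0.68. Without beta replicate 2, 22 were higher and 0 lower, with a median of 0.46. Only 1 member, Atf3, was lower at an unadjusted p under 0.05 (log2 fold change -3.42 ± 1.37, adjusted p = 0.123, edgeR), and DESeq2 called 1 member lower. Members of the disposal route were among those furthest apart. Edem1 (chr6:108828641-108859356), which takes misfolded glycoproteins to degradation, was at 53.9, 36.8 and 43.7 CPM in alpha and 196, 204 and 200 in beta, 4.46-fold higher (2.16 ± 0.15, adjusted p = 8.41e-09, edgeR). Sel1l, the scaffold of the membrane ubiquitin ligase, was at 129, 123 and 111 CPM in alpha and 328, 300 and 277 in beta, 2.48-fold higher, and Derl1, of the export channel, was 2.06-fold higher. Among sensors and factors of the stress response, Atf6 rose 1.92-fold, Atf4, the factor induced when initiation of translation is held back, 1.86-fold, and Chac1, a glutathione-degrading target of ATF4, 3.62-fold. The chaperones Hspa5 and Hsp90b1 differed little: Hspa5, known as BiP, was at 1097, 1011 and 832 CPM in alpha and 1096, 1423 and 969 in beta (log2 fold change 0.25 ± 0.16, adjusted p = 0.326, edgeR), and Hsp90b1 had a log2 fold change of 0.11 ± 0.14. Several other folding genes were highest in beta replicate 2. Hyou1 was at 267, 259 and 224 CPM in alpha and 439, 655 and 437 in beta, Pdia6 at 156, 166 and 156 and 215, 335 and 223, and Sdf2l1 at 9.57, 10.6 and 7.90 and 20.7, 42.2 and 26.1. These stayed past the test without that library, with log2 fold changes of 0.80, 0.45 and 1.31 in place of 1.03, 0.69 and 1.65. Creld2, Syvn1, Calr, Canx and Herpud1 did not, with adjusted p values of 0.242, 0.145, 0.235, 0.279 and 0.0561. Their calls also hung on other libraries: without alpha replicate 1 the adjusted p was 0.0616 for Creld2, 0.0519 for Syvn1, 0.0932 for Calr and 0.0596 for Canx, without alpha replicate 2 it was 0.0854 for Creld2 and 0.194 for Canx, without alpha replicate 3 it was 0.0909 for Creld2, 0.0782 for Calr and 0.136 for Canx, and without beta replicate 1 it was 0.110 for Canx.

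The promoters of the folding genes were read for the endoplasmic reticulum stress element, the site known to bind ATF6 with NF-Y, written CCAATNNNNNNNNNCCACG and searched on both strands in the 250 bases before the start site (RefSeq, GRCm38.p6). It was found in 8 of the 32 folding genes with a promoter in that table (25%), in 6 of the 25 that rose (24.0%), and in 37 of all 32851 promoters (0.113%). The units differ: a gene counted when any of its promoters matched, while the last share counts promoters singly, for 27025 genes. The list was chosen by function and the element is known from stress response genes. A high share in the list thus follows from that choice and is no result about beta and alpha. The 8 were Calr, Canx, Creld2, Dnajc3, Pdia6 and Syvn1, which rose, and Hspa5 and Hsp90b1, which did not pass the test, so the element was present on both sides of the call. A subset is shown, from a gene called with and without beta replicate 2 (Dnajc3) and from genes that lost the call without it (Creld2, Syvn1). Capitals mark the match, and each sequence is given along the strand of its gene.
Dnajc3 (chr14:118937682-118937931, plus strand)
Dnajc3: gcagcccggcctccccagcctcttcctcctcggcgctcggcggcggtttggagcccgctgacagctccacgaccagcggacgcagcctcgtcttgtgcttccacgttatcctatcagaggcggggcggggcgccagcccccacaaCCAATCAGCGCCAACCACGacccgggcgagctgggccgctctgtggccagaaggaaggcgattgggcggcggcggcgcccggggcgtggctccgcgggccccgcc
Creld2 (chr15:88819396-88819645, plus strand)
Creld2: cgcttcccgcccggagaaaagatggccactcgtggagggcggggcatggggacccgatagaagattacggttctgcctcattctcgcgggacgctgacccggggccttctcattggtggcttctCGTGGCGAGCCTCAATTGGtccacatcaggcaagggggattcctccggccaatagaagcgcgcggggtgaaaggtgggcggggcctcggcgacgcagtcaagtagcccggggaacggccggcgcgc
Syvn1 (chr19:6046326-6046575, plus strand)
Syvn1: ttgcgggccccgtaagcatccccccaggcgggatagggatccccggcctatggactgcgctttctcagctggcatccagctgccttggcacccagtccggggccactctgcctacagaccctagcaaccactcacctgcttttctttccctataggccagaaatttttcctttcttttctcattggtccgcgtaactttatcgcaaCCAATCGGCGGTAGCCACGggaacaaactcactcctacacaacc
The match ended 87 bases before the start of Dnajc3 and 26 before that of Syvn1, and in Creld2, 108 bases before the start, it lay on the opposite strand. Dnajc3, a co-chaperone that also restrains the kinase of the translation stress pathway, was at 311, 270 and 283 CPM in alpha and 449, 560 and 435 in beta, 1.67-fold higher (0.74 ± 0.12, adjusted p = 1.82e-04, edgeR).

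The element known to bind ATF4 with C/EBP factors, TGATGNAA on either strand, is short and was found in 3.45% of all promoters (1134). It was found in 3 of 32 folding genes (Atf3, Chac1, Herpud1), in 3 of 26 genes of amino acid metabolism (Asns, Got1, Pycr1) and in 2 of 22 transporters (Slc7a11, Slc7a7). Genes and promoters were counted as for the first element, in unlike units, and these lists were likewise chosen by function. Of these 8 genes, Chac1, Herpud1, Asns, Pycr1 and Slc7a11 were higher in beta, Slc7a7, of the carrier y+LAT1, was lower with 3 counts in beta, and Atf3 and Got1 did not pass the test. Herpud1 lost its call without beta replicate 2 (adjusted p = 0.0561, edgeR), and Pycr1, of proline synthesis, without alpha replicate 3 (0.0567) and without beta replicate 1 (0.0678). Shown are Chac1 and Slc7a11, whose calls held without every alpha and beta library in turn, with the match in capitals and each sequence along the strand of its gene.
Chac1 (chr2:119350992-119351241, plus strand)
Chac1: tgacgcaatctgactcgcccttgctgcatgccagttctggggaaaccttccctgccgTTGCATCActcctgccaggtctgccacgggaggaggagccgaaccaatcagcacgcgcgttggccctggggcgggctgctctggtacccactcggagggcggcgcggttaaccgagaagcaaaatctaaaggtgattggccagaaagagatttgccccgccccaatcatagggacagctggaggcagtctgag
Slc7a11 (chr3:50443614-50443863, minus strand)
Slc7a11: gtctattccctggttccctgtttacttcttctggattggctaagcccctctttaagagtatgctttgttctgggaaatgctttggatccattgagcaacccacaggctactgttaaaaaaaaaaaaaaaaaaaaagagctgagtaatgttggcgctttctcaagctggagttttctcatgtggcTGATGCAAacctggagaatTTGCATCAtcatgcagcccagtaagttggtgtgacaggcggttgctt
In Chac1 the match lay 186 bases before the start. Slc7a11 held a pair of matches in opposite orientation, 59 and 40 bases before the start.

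**Figure D4:**
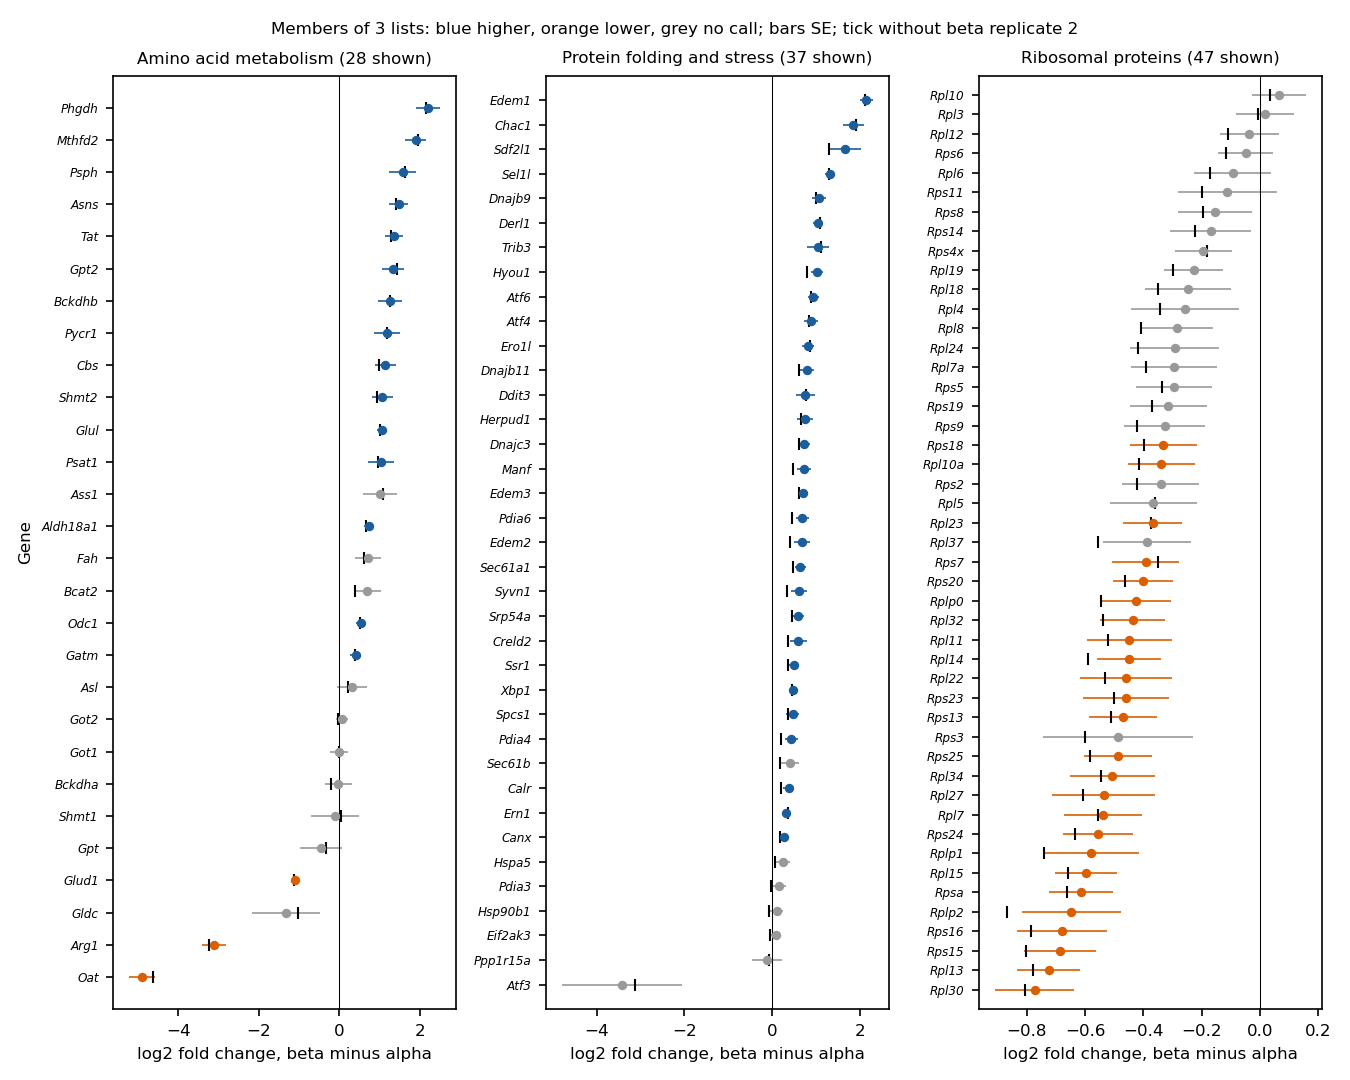
Tested members of the lists of amino acid metabolism (28 of 29), protein folding (37) and ribosomal proteins (47) are drawn, each a point at its log2 fold change (beta minus alpha) with its SE as a bar; blue members were higher, orange lower and grey did not pass the test, and the black tick is the value without beta replicate 2. Folding genes lie to the right except for Atf3 at -3.42 and Ppp1r15a at -0.11, ribosomal protein genes lie to the left except for Rpl10 at 0.06 and Rpl3 at 0.02, and most ticks in the folding panel lie left of their points.

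Ribosomal protein genes were lower in beta by small steps: 25 of 47 passed the test, 0 were higher in edgeR (0 also at an unadjusted p under 0.05 and in DESeq2), and the median log2 fold change was -0.39. Without beta replicate 2, 22 were lower with a median of -0.42, and the count was 15, 14, 14 and 16 without alpha replicate 1, alpha replicate 2, beta replicate 1 and beta replicate 3. No member differed by 2-fold. Rpl30 was at 117, 109 and 102 CPM in alpha and 67.2, 65.8 and 58.8 in beta (-0.77 ± 0.14, adjusted p = 3.21e-04, edgeR), and Rpsa at 274, 299 and 250 and 151, 189 and 198 (-0.61 ± 0.11). In neither gene did the libraries overlap, nor did they in 45.5% of all tested genes. Many of these genes have processed copies elsewhere in the genome, among which RSEM divides reads, so single values are uncertain. Rps29 is kept apart, since its level in beta replicate 2 was 52.6 CPM against 32.0 and 31.9 in the other beta libraries. Protein-coding genes of the mitochondrial genome were higher for 7 of 13 members, with a median of 0.32, but 0 passed without beta replicate 2, alpha replicate 2 or alpha replicate 3 and 1 without beta replicate 1. At an unadjusted p under 0.05, 6, 4 and 6 members were higher without beta replicate 2, alpha replicate 2 and alpha replicate 3. The gene mt-Co1, a subunit of cytochrome oxidase, was at 13226, 10520 and 10041 CPM in alpha and 14839, 14851 and 14582 in beta (log2 fold change 0.39 ± 0.11), and its adjusted p of 0.0149 became 0.0631 without beta replicate 2, 0.102 without alpha replicate 2 and 0.0907 without alpha replicate 3. Of 38 nuclear genes of the respiratory chain 2 were higher and 1 lower, a share of 7.89%, below that of all genes. The higher count was 1 without alpha replicate 1, alpha replicate 3, beta replicate 2 or beta replicate 3, and the lower count 0 without alpha replicate 1 or any beta replicate.

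Genes that make, load or clear monoamines and GABA leaned to beta. Of 16 tested, 11 were higher and 1 lower (8 and 1 without beta replicate 2), with a median log2 fold change of 0.58. Th, tyrosine hydroxylase, which starts catecholamine synthesis, was at 0.114, 0.504 and 0 CPM in alpha and 14.6, 19.9 and 17.0 in beta (6.24 ± 0.62, adjusted p = 1.03e-06, edgeR), and the log2 fold change was 7.74 without alpha replicate 2. Th lies next to Ins2 on the chromosome. Abat, which breaks GABA down, was at 55.9, 48.1 and 52.6 CPM in alpha and 126, 157 and 139 in beta, 2.69-fold higher. Gch1, which makes the cofactor of tyrosine hydroxylase, was at 122, 118 and 126 CPM in alpha and 210, 197 and 230 in beta, 1.74-fold higher. Ddc, the decarboxylase that follows, was 2.37-fold higher, with 106 to 117 CPM in alpha and 235 to 295 in beta, but its adjusted p of 0.0131 became 0.0534 without beta replicate 2 and 0.0543 when either alpha replicate 2 or alpha replicate 3 was left out. Slc18a1, a vesicular monoamine carrier, was 2.35-fold higher, with an adjusted p of 0.0529 without alpha replicate 1 in place of 8.14e-03. Slc6a17, a vesicular carrier of neutral amino acids, was the member that fell (1.91-fold).

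Receptors for amines, lipids and nucleotides changed in both directions. Of 21 tested, 10 were higher and 5 lower (8 and 5 without beta replicate 2). Adora1, the inhibitory adenosine receptor A1, was at 3.42, 2.90 and 2.68 CPM in alpha and 23.9, 25 and 23.9 in beta, 8.02-fold higher, whereas the stimulatory receptor Adora2a was at 9.11, 6.93 and 6.77 in alpha and 1.16, 1.37 and 0.825 in beta, 6.73-fold lower. The other stimulatory adenosine receptor, Adora2b, was 8.50-fold higher in beta. Gabbr2, a subunit of the GABA-B receptor, rose 8.55-fold, while Gabbr1, its partner, did not pass the test (log2 fold change -0.26). Chrm3, the muscarinic receptor M3, was at 10.0, 8.81 and 14.1 CPM in alpha and 69.0, 62.9 and 58.8 in beta, 5.8-fold higher. P2ry1, an ADP receptor, was 9.34-fold higher, with a log2 fold change of 3.22 that became 3.81 without alpha replicate 1. Adrb1 and Adra1a, the beta-1 and alpha-1A adrenergic receptors, had 0 counts in all beta libraries. Adrb1 was at 10.9, 9.44 and 10.7 CPM in alpha, at least 68.1-fold higher than in beta, and Adra1a at 3.65, 3.15 and 7.90, at least 31.1-fold higher. Gpr119, the receptor for lipid amides, was at 72.6, 72.4 and 52.3 CPM in alpha and 13.6, 18.3 and 17.3 in beta, 4.02-fold lower. Ptger3, a prostaglandin E receptor, was 7.84-fold lower, but with levels of 1.55 to 6.15 CPM in alpha its adjusted p of 0.0133 became 0.0835, 0.0672, 0.0527 and 0.0705 without alpha replicate 1, alpha replicate 2, beta replicate 1 and beta replicate 3.

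Below the receptors, cAMP and G protein genes also changed in both directions, with 15 of 33 higher and 12 lower (11 and 11 without beta replicate 2) and a median log2 fold change of -0.01. Gnas (chr2:174284320-174346744), the locus of the stimulatory G alpha subunit, was at 2950, 3181 and 2873 CPM in alpha and 465, 498 and 452 in beta, 6.37-fold lower (-2.67 ± 0.09, adjusted p = 6.60e-13, edgeR). Counts are per gene, over all transcripts of the locus, so they do not give the transcript of this subunit alone. Gnai1, an inhibitory subunit, was at 169, 150 and 168 CPM in alpha and 29.0, 20.0 and 26.9 in beta, 6.39-fold lower, while its paralogue Gnai2 was at 130, 127 and 122 and 280, 257 and 295, 2.19-fold higher. The libraries of the subsets did not overlap for any of the 3, nor for 45.5% of all tested genes. Among phosphodiesterases, Pde4d was 6.41-fold lower (105, 127 and 135 CPM in alpha, 20.4, 20.9 and 15.8 in beta), Pde4b 3.88-fold higher (27.3, 19 and 24.3 against 87.3, 94.6 and 92.4), and the cGMP enzyme Pde5a 7.39-fold higher. Of the adenylate cyclases, which make cAMP, Adcy5 was 9.42-fold lower, and Adcy1 had 1 count in beta, with an alpha level 198 times higher (95% counting interval 35.1 to 7837; fitted log2 fold change -7.23, and -9.19 without beta replicate 1). Rapgef3, the cAMP sensor Epac1, had 0 counts in beta and was at 2.16, 2.14 and 4.51 CPM in alpha, at least 18.7-fold higher. Gng12, a G gamma subunit (5.73-fold), and Prkar2b, a regulatory subunit of protein kinase A (4.16-fold), were higher in beta, and Rgs4, which shortens G protein signals, was 2.51-fold lower.

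Ion channels differed by subunit. Of 23 potassium channel genes 6 were higher and 7 lower (5 and 6 without beta replicate 2). Kcnk3 (chr5:30588170-30625271), the TASK-1 leak channel, was at 54.5, 61.8 and 59.3 CPM in alpha and 0.642, 1.03 and 0.660 in beta, 74.9-fold lower (-6.23 ± 0.26, adjusted p = 1.47e-11, edgeR). Kcnj6, which joins the Kcnj3 protein in G protein-gated channels, was 2.96-fold lower, at 49.2, 44.1 and 48.4 CPM in alpha and 16.8, 14.1 and 16.8 in beta. Kcng3, a modifier of Kv2 channels, was at 1.14, 1.51 and 1.69 CPM in alpha and 21.2, 21.8 and 26.6 in beta, 15.9-fold higher. The subunits of the ATP-sensitive channel did not pass the test, with log2 fold changes of -0.09 for Kcnj11 and -0.03 for Abcc8. Of 32 calcium, sodium and chloride channel genes 13 were higher and 10 lower, and the lower count was 6 without alpha replicate 2, beta replicate 1 or beta replicate 2. Trpm2, a cation channel gated by ADP-ribose, was 10.9-fold higher (0.988 to 2.14 CPM in alpha, 14.4 to 18.8 in beta), and Trpm3, gated by heat and steroids, 9.07-fold higher. Itpr1, the inositol trisphosphate receptor, was at 671, 599 and 610 CPM in alpha and 104, 82.8 and 106 in beta, 6.42-fold lower, and Scn3a, a sodium channel, at 136, 115 and 115 and 34.5, 39.6 and 37.0, 3.30-fold lower. Among 16 ionotropic receptor genes 3 were higher and 7 lower (3 and 5 without beta replicate 2). Gria2 (chr3:80681450-80802835), an AMPA receptor subunit, was at 369, 372 and 395 CPM in alpha and 21.3, 23 and 20.3 in beta, 17.6-fold lower (-4.14 ± 0.12, adjusted p = 2.47e-13, edgeR). Grin1 and Grin2c, subunits of the NMDA receptor, were 8.90-fold and 5.95-fold higher in beta, at 42.8, 46.4 and 51.0 CPM for Grin1 against 5.24, 4.16 and 6.35 in alpha.

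Granule docking genes were split between paralogues. Of 44 synaptotagmin, SNARE and docking genes 14 were higher and 12 lower (13 and 12 without beta replicate 2). The Rab3 family held both directions: Rab3c was at 86.4, 87.9 and 81 CPM in alpha and 4.37, 3.94 and 3.47 in beta, 21.5-fold lower, and Rab3d at 28, 29.8 and 25 and 74.9, 88.4 and 79.4, 2.92-fold higher. Its relative Rab27b was 16.5-fold lower. Of the proteins that bind Rab27, Sytl2 was lower as described, and Mlph was at 0.456, 1.13 and 1.41 CPM in alpha and 11.7, 11.8 and 19.3 in beta, 14.3-fold higher. Exph5 was 2.40-fold higher, and Sytl1 4.81-fold. Syt4, a synaptotagmin that does not bind calcium in its usual mode, was at 157, 114 and 131 CPM in alpha and 395, 387 and 319 in beta, 2.73-fold higher, and Syt16 was 8.40-fold lower. Syt1, the calcium sensor of synapses, fell in beta with a log2 fold change of -3.58, and -4.39 without beta replicate 2, the beta library where it was highest (1.54 CPM against 0.257 and 0.660).

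Axon guidance genes had a median log2 fold change of -0.47, the lowest of the lists, and of -0.41 without beta replicate 2, where the medians of ionotropic receptors (-0.46) and ribosomal proteins (-0.42) were lower. Of 30 tested, 16 were lower and 4 higher (13 and 4 without beta replicate 2). Sema3e, a secreted semaphorin, was at 51.7, 47.1 and 54.3 CPM in alpha and 1.54, 3.08 and 3.96 in beta, 18.3-fold lower (-4.19 ± 0.21, adjusted p = 9.87e-11, edgeR). Ephb2, an ephrin receptor, was at 17.4, 19 and 19.6 CPM in alpha and 2.82, 1.71 and 3.30 in beta, 7.06-fold lower. Its ligand Efnb2 had a log2 fold change of -5.18, which became -4.51 without beta replicate 1 and -6.20 without beta replicate 2, and Ntn4, a netrin, had -4.86, which became -5.46 without beta replicate 1. The 4 that rose were Robo1, a Slit receptor (4.86-fold, 21.9 to 26.1 CPM in alpha and 113 to 123 in beta), Unc5b, a netrin receptor (4.69-fold), Sema3c (2.27-fold) and the ephrin Efna5 (1.83-fold).

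Adhesion molecules changed in both directions, with 10 of 31 higher and 15 lower (9 and 12 without beta replicate 2). Cntn1 and Cntnap2, a contactin and a neurexin relative of nerve contacts, were 7.56-fold and 8.51-fold higher, with Cntnap2 at 11.1, 11.2 and 10.7 CPM in alpha and 87.3, 103 and 91.4 in beta. Cadm1, an immunoglobulin adhesion protein, was at 71.0, 59.9 and 58.3 and 6.93, 7.71 and 8.75, 8.12-fold lower, and Ncam2 11.3-fold lower. Igsf21 and Pcdh9 had 0 counts in beta and were at least 84.3-fold and 39.1-fold higher in alpha. Of 27 genes of matrix and integrins 10 were higher and 5 lower (9 and 5 without beta replicate 2), with a median of 0.67. Col6a6, a collagen VI chain, was at 10.3, 6.67 and 14.4 CPM in alpha and 132, 130 and 145 in beta, 13.1-fold higher, and Spock2, a matrix proteoglycan, at 51.2, 34.3 and 44.3 and 355, 369 and 335, 8.15-fold higher. Itgb8 (7.74-fold) and Itga6 (3.14-fold), integrin subunits, were higher, and Itgb1, the common beta subunit, was 1.36-fold lower. The basement membrane genes Nid1 and Lama5 were 54.4-fold and 35.1-fold lower in beta, at 10.6 to 15.2 CPM for Lama5 in alpha against 0.257 to 0.495. Mesenchymal markers, given above, were also higher in alpha, and their part in both genes was not tested.

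Wnt and BMP genes changed in both directions. Of 37 tested, 11 were higher and 11 lower (9 and 10 without beta replicate 2). Wnt receptors were among those that rose: Lrp5, the Wnt co-receptor, was at 1.25, 0.755 and 2.40 CPM in alpha and 19.3, 23.6 and 25.1 in beta, 15.5-fold higher, and Fzd7, a Frizzled receptor, at 1.14, 1.26 and 1.83 and 19, 13.0 and 16.3, 11.4-fold higher. Rspo4, a ligand that raises Wnt signalling, was 5.01-fold higher, and Sfrp5, which traps Wnt ligands, was at 120, 127 and 103 CPM in alpha and 1.93, 2.57 and 1.49 in beta, 58.4-fold lower. Frzb, a secreted Wnt trap of the same family that was in no list and was named through a run of neighbours, went the other way, at 17.9, 11.0 and 15.0 CPM in alpha and 195, 181 and 189 in beta, 12.9-fold higher (3.68 ± 0.14, adjusted p = 5.87e-12, edgeR). Axin2, a common Wnt target, did not pass the test, at a log2 fold change of -0.69. The Id genes, known targets of BMP signalling, were lower. Id3 was at 25.1, 28.6 and 26.4 CPM in alpha and 1.03, 1.03 and 1.82 in beta, 20.6-fold lower, and Id1, with 2 counts in beta, was 89.3 times higher in alpha (95% counting interval 24.4 to 742), with a fitted log2 fold change of -6.25 that became -5.62 without beta replicate 1 and -9.08 without beta replicate 3. Id2 and Id4, of the same family, were lower with log2 fold changes of -0.77 and -1.98, as were Smad7 (-1.05), which limits the signal, and Smad9 (17.5-fold), which carries it. Bmpr1b, a BMP receptor, was higher in beta (7.57-fold), and Tgfb2, a ligand, was lower, with a log2 fold change of -4.35 that became -5.50 without beta replicate 1.

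Growth factor receptors and co-receptors also changed in both directions, with 12 of 36 higher and 8 lower (10 and 8 without beta replicate 2). Ret, the receptor that takes GDNF-family signals together with the Gfra co-receptors, was at 61.3, 50.9 and 61.9 CPM in alpha and 157, 150 and 166 in beta, 2.72-fold higher. The co-receptor Gfra3 was at 42.4, 46.2 and 56.0 CPM in alpha and 0.514, 1.54 and 1.49 in beta, 41.9-fold lower, as Gfra1 was. Egfr, the receptor of EGF, was at 4.67, 10.5 and 7.2 CPM in alpha and 50.3, 48.8 and 53.8 in beta, 6.87-fold higher, and Ghr, the growth hormone receptor, 2.59-fold higher. Kit, the stem cell factor receptor, was 8.35-fold lower and Fgfr1 3.91-fold lower. Ntrk2, the BDNF receptor, was at 52.4, 37.4 and 48.4 CPM in alpha and 175, 210 and 180 in beta, a 4.08-fold difference in libraries that did not overlap. Its call, at an adjusted p of 0.0292, was lost without each alpha and beta library in turn, with values of 0.0837 (alpha replicate 1), 0.106 (alpha replicate 2), 0.0952 (alpha replicate 3), 0.0864 (beta replicate 1), 0.107 (beta replicate 2) and 0.0889 (beta replicate 3). All these fits also hold the delta libraries, and the part of their spread in these values was not tested. The Ntrk2 call was kept in the fit on the 6 alpha and beta libraries alone and lost in DESeq2. Of 31 growth factors and peptide ligands 8 were higher and 9 lower. Scg2, a granule protein and source of secretoneurin, was at 1058, 924 and 943 CPM in alpha and 2912, 3075 and 2489 in beta, 2.90-fold higher, Pdyn, which encodes dynorphins, was 4.04-fold higher, and Nucb2, the nesfatin precursor, 2.41-fold higher. The higher count of this list was 5 without beta replicate 1.

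Among 50 developmental transcription factors outside the textbook markers, 13 were higher and 13 lower (10 and 12 without beta replicate 2), a share of 52.0%. Pbx3, a partner of homeobox proteins, was at 22.4, 31.0 and 23 CPM in alpha and 81.2, 75.6 and 82.2 in beta, 3.13-fold higher. Tshz1, a zinc finger factor, was at 103, 92.0 and 87.5 CPM in alpha and 233, 221 and 247 in beta, 2.48-fold higher. Nfix (5.87-fold) and Hopx, a homeodomain protein that does not bind DNA (4.32-fold), were also higher. Prox1 (chr1:190118035-190170714), a homeobox factor of the early pancreas, was at 377, 362 and 366 CPM in alpha and 126, 140 and 142 in beta, 2.71-fold lower (-1.44 ± 0.09, adjusted p = 9.89e-10, edgeR). Onecut2 was 4.81-fold lower, Sox6 9.68-fold and Bach2, a repressor known from lymphocytes, 7.39-fold. The subsets did not overlap for any of these 8 genes, nor for 45.5% of all tested genes. Members with small p were chosen for naming, which favours such genes. Of 22 clock genes 6 were higher and 4 lower, but the higher count was 2 without alpha replicate 2, alpha replicate 3, beta replicate 1 or beta replicate 2. Bhlhe41 was 1.53-fold higher, Hlf 1.90-fold lower, and Per1 did not pass the test.

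In glucose and pyruvate metabolism, Pcx, Pck2 and Pfkfb2 were among the genes higher in beta, and Hk1, Fbp1, Slc2a3, Pygl and Pygb among those lower. Of 43 genes of glucose and pyruvate metabolism 14 were higher and 7 lower (13 and 7 without beta replicate 2). Pcx (chr19:4510472-4621752), pyruvate carboxylase, which feeds pyruvate into the citrate cycle, was at 14.6, 18.9 and 14.5 CPM in alpha and 84.0, 97.0 and 106 in beta, 5.96-fold higher (2.58 ± 0.17, adjusted p = 3.47e-09, edgeR). Pck2, which turns oxaloacetate into phosphoenolpyruvate in mitochondria, was at 50.2, 48.6 and 53.6 CPM in alpha and 137, 119 and 110 in beta, 2.41-fold higher, and Pfkfb2, which makes an activator of glycolysis, 2.15-fold. The lower members included genes known to be kept silent in beta cells: Hk1, the low-Km hexokinase, was at 14.6, 16.1 and 16.8 CPM in alpha and 0.642, 0.514 and 0.990 in beta, 21.7-fold lower. Slc16a1, the MCT1 carrier of lactate and pyruvate, had a log2 fold change of -4.52, which became -5.83 without beta replicate 3. Fbp1, a gluconeogenic phosphatase, was at 24.5, 22.4 and 19.5 CPM in alpha and 0.128, 1.03 and 0.990 in beta, 32.2-fold lower. Slc2a3, the neuronal glucose carrier GLUT3, had 2 counts in beta and an alpha level 214 times higher (95% counting interval 58.9 to 1769), with a fitted log2 fold change of -7.52 that became -6.88 without beta replicate 1. The glycogen phosphorylases Pygl and Pygb were 8.79-fold and 4.08-fold lower.

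Of 37 lipid genes 4 were higher and 10 lower (3 and 7 without beta replicate 2, and 6 lower without beta replicate 3), and 23 had no call. Over all tested genes 14.8% were higher and 11.9% lower. The median log2 fold change of the list was -0.08, close to the -0.02 of all tested genes. Hadh (chr3:131233419-131272101), an enzyme of fatty acid oxidation that also restrains glutamate dehydrogenase, was at 29.7, 31.9 and 25 CPM in alpha and 309, 307 and 290 in beta, 10.5-fold higher (3.39 ± 0.11, adjusted p = 8.51e-13, edgeR). Hadha and Hadhb, which carry out the neighbouring steps, did not pass the test, at log2 fold changes of 0.27 and 0.16. Elovl5, which lengthens polyunsaturated fatty acids, was 4.03-fold higher, while the desaturases Fads2 and Scd1 were 4.42-fold and 3.69-fold lower. Plin3, a lipid droplet coat protein, was at 14, 17.3 and 13.0 CPM in alpha and 1.67, 1.03 and 1.49 in beta, 10.3-fold lower. Glycolipid enzymes changed in both directions: of 25 tested, 8 were higher and 8 lower. The higher count was 5 without alpha replicate 1, alpha replicate 2 or beta replicate 1 and 4 without beta replicate 3, and the lower count 5 without beta replicate 2 or beta replicate 3. Next to St8sia1 on the ganglioside branch, St8sia5 was 8.21-fold higher and St3gal5, which makes the first ganglioside GM3, was at 14.2, 11.1 and 11.6 CPM in alpha and 41.5, 42.2 and 43.6 in beta, 3.44-fold higher. St8sia3, of the same family, went the other way, at 110, 99.4 and 92.0 CPM in alpha and 36.5, 36.8 and 34.3 in beta, 2.80-fold lower. On the galactosylceramide branch Ugt8a was at 0 counts in beta, and Gal3st1, which adds the sulfate of sulfatide, did not pass the test (5.52 ± 1.59 CPM in alpha and 7.28 ± 1.90 in beta, mean ± SD, n = 3). Of 21 sulfation enzymes 6 were higher (3 without alpha replicate 3 or beta replicate 2) and 4 lower. Ndst4, which modifies heparan sulfate, was at 304, 214 and 282 CPM in alpha and 4.88, 3.94 and 2.81 in beta, 67.5-fold lower, and Chst11, which sulfates chondroitin, at 30.6, 27.1 and 26.4 and 145, 158 and 141, 5.26-fold higher. Ndst4 and Ugt8a are neighbours on chromosome 3.

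Of 30 imprinted genes, which are expressed from the allele of 1 parent, 21 passed the test (70.0%, beside 26.6% of all tested genes), with 8 higher and 13 lower (7 and 12 without beta replicate 2). Neighbouring imprinted genes moved together in some clusters and apart in others. Peg10 and Sgce, which share a promoter region, were both lower, as was Asb4 of the same cluster (17.8, 16.6 and 16.5 CPM in alpha, 4.37, 4.28 and 2.15 in beta, 4.67-fold). Grb10, an adaptor that restrains insulin signalling, was at 350, 298 and 289 CPM in alpha and 94.1, 59.8 and 70.1 in beta, 4.17-fold lower. Zim1, a zinc finger gene, was at 531, 528 and 611 and 203, 169 and 225, 2.80-fold lower, while Peg3 beside it did not pass the test (4706, 4523 and 4738 against 4626, 4215 and 4380 CPM). In the cluster of Meg3, the long non-coding RNAs Rian and Mirg were 1.42-fold and 1.88-fold higher and Meg3 itself did not pass the test (log2 fold change 0.04 ± 0.10). Zdbf2 (2.13-fold), Nap1l5 (2.36-fold) and Ndn, which encodes necdin (2.07-fold), were lower. Parental alleles were not resolved in these counts.

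Proteins that bind RNA and steer splicing leaned to alpha, with 13 of 29 lower and 5 higher (11 and 4 without beta replicate 2). A1cf, the complementation factor of APOBEC1, was at 72.1, 79.5 and 84.4 CPM in alpha and 21.3, 19.4 and 21.0 in beta, 3.82-fold lower, and Mbnl2, a muscleblind splicing factor, at 835, 725 and 843 and 406, 385 and 375, 2.06-fold lower. Elavl2 was 5.91-fold lower and its relative Elavl4 1.67-fold higher. Esrp1, an epithelial splicing factor, was 1.98-fold higher, with 84.7 to 101 CPM in alpha and 167 to 199 in beta. Antioxidant genes were higher for 14 of 35 and lower for 4, and the higher count was 8, 9 and 9 without beta replicate 2, alpha replicate 1 and alpha replicate 2. Gpx3 (chr11:54902453-54910377), the secreted glutathione peroxidase, was at 595, 617 and 495 CPM in alpha and 6.29, 6.68 and 7.43 in beta, 83.7-fold lower (-6.39 ± 0.15, adjusted p = 2.00e-14, edgeR). Gstm1, a glutathione transferase with close paralogues, was 3.92-fold higher, and Glrx, glutaredoxin, 3.08-fold higher. Of 38 lysosome and autophagy genes 11 were higher and 5 lower. The higher count was 6 without beta replicate 2 and 7 without alpha replicate 3, and the lower count 3 without beta replicate 2 and 2 without alpha replicate 1. Wipi1, an early autophagy protein, was 4.07-fold higher and Ctsz, cathepsin Z, 10.7-fold lower.

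Several lists were called at or below the rate of all tested genes (26.6%) or close to it. Cilium genes were called for 7 of 34 (20.6%), genes of antigen presentation and interferon for 5 of 25 (20.0%), immediate early genes for 5 of 24 (20.8%), cholesterol genes for 8 of 27 (29.6%) and cell cycle genes for 9 of 30 (30%). Single members still stood out. Ifih1, a sensor of double-stranded RNA, was at 189, 145 and 139 CPM in alpha and 41.5, 32.6 and 40.6 in beta, 4.12-fold lower. Among immediate early genes, Klf4 (8.36-fold) and Klf6 (2.23-fold) were lower, whereas Fos and Fosb, which report on recent handling or activity, varied within each subset, Fos from 74.9 to 319 CPM in alpha and from 121 to 333 in beta, with replicate 1 the highest of both subsets. The higher counts of the cilium list (6) and cell cycle list (5) fell to 2 and 3 without beta replicate 2. The first was also 2 without alpha replicate 1 and 3 without alpha replicate 2 or beta replicate 1, and the second 3 without alpha replicate 2 or beta replicate 3. The lower count of cell cycle genes (4) was 2 without alpha replicate 1 or beta replicate 3. Immediate early genes, 1 higher and 4 lower, were 3 higher and 2 lower without alpha replicate 1 and 2 lower without beta replicate 3.

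Among non-coding genes 18.1% of 409 lincRNAs and 14.1% of 518 antisense RNAs passed the test, beside 29.9% of 12481 protein-coding genes. Depth per gene also differs between these classes, and the gap was not tested. Gm17767 was at 3.08, 4.16 and 5.93 CPM in alpha and 127, 126 and 139 in beta, 30-fold higher (4.91 ± 0.25, adjusted p = 5.52e-10, edgeR). Gm49542 was at 6.15, 6.42 and 7.76 CPM in alpha and 82.4, 80.2 and 84.0 in beta, 12.1-fold higher, and Gm6999 23.7-fold higher. On the alpha side, Dbpht2 was at 733, 611 and 593 CPM in alpha and 59.3, 44.7 and 51.3 in beta, 12.4-fold lower, and Gm45159, Gm20554 and Gm15261 were 6.48-fold, 26.1-fold and 16.3-fold lower. Lack of overlap between the subsets was a condition for naming these non-coding genes. The library kit keeps strand, per the labels' protocols, but no source used here says whether the counting used it, so reads of such genes and of genes they overlap may not be fully separated.

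Some called genes were neighbours in the genome. Of 12481 tested protein-coding genes, 871 were higher and 868 lower by at least 2-fold. There were 46 runs of 3 or more neighbouring tested protein-coding genes that were all past the test, at least 2-fold apart and in 1 direction, 22 higher and 24 lower. Some held a hormone gene with its neighbours: Igf2, Ins2 and Th were higher together on chromosome 7 (Igf2 with an adjusted p of 0.0503 without beta replicate 1, Ins2 with 0.0528 when alpha replicate 2 was left out and 0.0519 when alpha replicate 3 was), and Mpp2, Ppy and Pyy were lower together on chromosome 11. Others held paralogues, such as the acyl-CoA thioesterases Acot1, Acot3 and Acot4 on chromosome 12, where Acot4 was 4.89-fold lower (7.75, 9.19 and 14.7 CPM in alpha, 2.05, 1.37 and 2.97 in beta), and the metallothioneins Mt1 and Mt2 with Nup93 on chromosome 8. Mt2 was 3.26-fold higher. Mt1 was 3.28-fold higher, with an adjusted p of 0.0265 that became 0.0872 without alpha replicate 1 and 0.0929 without alpha replicate 2. A further kind held unlike genes, such as Pde4d, Rab3c and Plk2, all lower, on chromosome 13. Some runs held genes with overlapping bounds, which may share reads, such as Adora3 with Tmigd3 and Gm20518 with Car15. How many runs the shares of higher and lower genes alone would give was not worked out. Whether neighbours lie together more than that was thus not tested. Shared or read-through transcripts were not tested. Genes at least 2-fold apart spanned more of the genome by median, which was 25610 bp over all tested protein-coding genes, 41203 bp over those higher and 53507 bp over those lower, and 15.2%, 27.1% and 35.1% spanned over 100 kb. The X chromosome held 3.45%, 3.79% and 7.03% of them. The source of this difference in span was not tested.

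Beta replicate 2, rich in ribosomal RNA, was compared with the other beta libraries gene by gene, and the 5 genes furthest above and the 5 furthest below are given. Among protein-coding genes at 30 CPM or more in beta, it was furthest above the mean of the others for Lars2 (37160 CPM against 774 and 911 in beta replicates 1 and 3), Hist1h1d (119 against 61.0 and 60.2), Spp1 (161 against 106 and 62.7), Vgf (43.9 against 22.2 and 27.7) and Rps29 (52.6 against 32.0 and 31.9). It was furthest below for Tenm4 (33.6 against 61.8 and 54.3), Fosb (67.2 against 207 and 21.0), Ptp4a1 (64.6 against 125 and 88.5), Slc30a1 (31.5 against 47.3 and 55.5) and Fos (144 against 333 and 121). For Lars2, leucyl-tRNA synthetase of mitochondria, the log2 fold change was 4.48 ± 1.68 with the library (adjusted p = 0.110, edgeR) and 0.52 without it. Fos and Fosb lay between the other beta libraries. Vgf, a granule protein, was lower in beta with the library (-1.22) and more so without it (-1.55). Spp1, osteopontin, was at 440, 592 and 639 CPM in alpha, 5.07-fold higher than in beta, and its adjusted p of 0.0225 became 0.0637, 0.0670, 0.0853 and 0.0728 without alpha replicate 2, alpha replicate 3, beta replicate 1 and beta replicate 3. Rps29 lost its call without any of the other alpha or beta libraries (adjusted p from 0.0527, without alpha replicate 3, to 0.167, without beta replicate 1) and kept it without beta replicate 2. Of the lists, folding (30 to 22), mitochondrial genome (7 to 0), antioxidant (14 to 8) and lysosome genes (11 to 6) lost the most higher calls without this library, followed by clock genes (6 to 2), cilium genes (6 to 2) and cAMP and G protein genes (15 to 11), which lost 4 each, and ribosomal protein genes lost 3 of 25 lower calls. With any 1 alpha or beta library left out, 22 to 30 folding and 0 to 7 mitochondrial genome genes were higher. The ranges were 8 to 13 for antioxidant, 6 to 9 for lysosome and 11 to 13 for cAMP and G protein genes. Whether the ribosomal RNA content of beta replicate 2 set its levels was not tested. Nor was the part of a smaller number of libraries in the lost calls.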

How the data were processed

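RNA-seq was read from 9 libraries, 3 per sorted subset, of which the 6 alpha-enriched and beta-enriched ones are compared. Reads were aligned with STAR 2.5.2b to GRCm38.p6 and quantified with RSEM, per the submitters' processing notes, which also name R 3.5.1 and DESeq2 1.22.1. No source used here gives the version of RSEM. The authors deposited per-gene expected counts, which RSEM estimates by dividing shared reads and which need not be whole, and TPM, which is scaled to gene length and depth, per the file headers. A normalised matrix of the series was not used here.

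Expected counts were rounded and tested with edgeR 4.0.16 in R 4.3.3: default filter on low counts, TMM factors, robust quasi-likelihood fit over all 9 libraries with 6 residual degrees of freedom, and Benjamini-Hochberg adjustment over 15896 genes with a threshold of 0.05. The common biological coefficient of variation was 0.212. The delta libraries thus bear on the p-values, and the part of their spread in single calls was not tested. Spearman correlations of log2 CPM were 0.947 to 0.960 within delta, 0.974 to 0.976 within alpha and 0.982 to 0.986 within beta. The SE is the absolute log2 fold change divided by the square root of its F. DESeq2 1.42.0 and limma 3.58.1, on log2(TPM + 1) and log2(TPM + 0.1), served as alternatives, with the fit tested first on simulated counts. All 55536 gene IDs were matched to GENCODE M21. Totals per library were 5956758 to 9529920 in the 6 libraries, and precision for genes of a few counts is limited accordingly. A floor of 3 counts over a subset stands for 0 counts, and 95% exact intervals are given for ratios resting on 1 to 3 counts. Both cover counting error only, since reads without molecular identifiers are not independent molecules.

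The members and lists were chosen with earlier results of these data known. Genes were named by rule: the 14 largest rises and falls at 30 CPM or more, with no overlap between subsets and the call held without beta replicate 2. Up to 5 members per list with the smallest p at 5 CPM or more were named, with members in the rarer direction. The 5 largest rises and falls of non-coding genes at 10 CPM or more were named, with the same conditions on overlap and on beta replicate 2. So were the 5 genes at 30 CPM or more furthest above and the 5 furthest below in beta replicate 2. Genes at 0 counts in 1 subset and 20 CPM or more in the other were named, as were runs of 3 or more neighbours. Further genes were added after their values were seen. A few members of the lists, counted in the totals, are not reported here by name. Of 15896 genes, 7239 (45.5%) did not overlap between the subsets.

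The numbers in the labels could pair the libraries, but no label says that a number marks a shared mouse or day. They were therefore not used as a block in the main fit. Deviations from the subset means correlated at 0.0679, 0.0815 and 0.112 for libraries of the same number, and at -0.102 to 0.0187 for the others. These values do not settle the pairing, and a fit with the block is given below as an alternative.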

Additional observations from a re-analysis of the deposited data

How the results depend on the processing

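Of the genes called, 2345 were higher and 1886 lower. With 1 alpha or beta library left out, 1754 to 1964 were higher and 1443 to 1556 lower. Against a log2 fold change of 1 as the null, 552 were higher and 659 lower, since fewer genes differ by that much. limma called 899 and 866 on log2(TPM + 1) and 869 and 950 on log2(TPM + 0.1), and the cause was not tested. Upper-quartile factors shifted the split to 1959 higher and 2348 lower, and the fit on 6 libraries alone gave 2755 and 2566. Other scalings, filters, the fit without robust estimation and DESeq2 stayed between 2260 and 2396 higher and between 1856 and 2045 lower. With the replicate block, 2561 were higher and 2064 lower. Each alpha and beta library correlated best with its own number (0.0679, 0.0815 and 0.112), a hint from the data and not from the design.

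Of 469 named genes, 36 to 46 lost the call when 1 library was left out, 112 on log2(TPM + 1), 107 on log2(TPM + 0.1), 182 against the null of 1, 19 with upper-quartile factors and 1 in DESeq2. The block lost the calls of 6 named genes (Ddc, Dgat2, Gm3383, Gm8237, Ntrk2 and Spp1) and gave one to 4 (Fos, Fosb, Hist1h1d and Ptp4a1). Among genes with a call, the direction turned for Dgat2 alone, at -0.046 on log2(TPM + 1). It also turned in some settings for Fos, Fosb, Got1, Hsp90b1, Meg3, Per1 and Tenm4, which had no call. Counts of list members moved by over 1.5 times in 7 to 14 of 68 with 1 library left out, 7 with upper-quartile factors, 2 in DESeq2, 58 against the null of 1, 45 on log2(TPM + 1) and 41 on log2(TPM + 0.1). The 3 libraries per subset, of unstated origin, limit all of this to the spread between these libraries, and genes with few counts in 1 subset have folds set by single reads.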
